A study of Mus musculus with 4 samples.

Results

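HCN channels and potassium leak channels set how thalamic neurons rest and fire, and 8 of their genes were followed here: Hcn2, Hcn3, Hcn4, Pex5l, Kcnk1, Kcnk2, Kcnk3 and Kcnk9. They were taken by gene symbol, and all 8 had a row among the 40091 genes of the files. The samples were 4 libraries of single nuclei from the thalamus of wild-type C57BL6 mice aged 7 to 8 weeks, each library pooling the tissue of 3 mice, taken 7 days after an injection. COL mice received type IV collagenase (Coll IV, 0.01 U in 10 nl of saline), an enzyme that breaks down the basement membrane of vessels and causes haemorrhage, into the right ventral posterior medial and lateral nuclei (VPM and VPL). NS mice received saline at the same place. Each group had 2 libraries, so n = 2 in every comparison of COL with NS and the individual mice cannot be told apart.

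HCN channels are cation channels that open when the membrane hyperpolarises and bind cyclic AMP. Their current helps thalamocortical and reticular neurons to pace rhythmic bursts. Pex5l encodes TRIP8b, an auxiliary subunit that binds the tail of HCN channels, steers them to the membrane and lowers their response to cyclic AMP. Two-pore potassium channels carry the leak current that holds the resting potential. Kcnk1 encodes TWIK-1, Kcnk2 encodes the mechanosensitive and lipid-sensitive channel TREK-1, and Kcnk3 and Kcnk9 encode TASK-1 and TASK-3, the acid-sensitive leak channels that muscarinic and other Gq-coupled receptors close in thalamic relay neurons.

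On GRCm38 (mm10), GENCODE places Hcn2 on chromosome 10 from 79716634 to 79736108 on the plus strand, Hcn4 on chromosome 9 from 58823412 to 58863175 on the plus strand and Hcn3 on chromosome 3 from 89146074 to 89160196 on the minus strand. Pex5l also lies on chromosome 3, from 32949408 to 33143247 on the minus strand. Kcnk1 lies on chromosome 8 from 125995170 to 126030685 (plus), Kcnk2 on chromosome 1 from 189207930 to 189402273 (minus), Kcnk3 on chromosome 5 from 30588170 to 30625271 (plus) and Kcnk9 on chromosome 15 from 72501089 to 72546340 (minus). The loci of Kcnk1, Kcnk2, Kcnk3, Hcn3 and Pex5l overlap other annotated genes. Counts are per whole gene, so alternative transcripts are not resolved.

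Each library held 5931 to 10422 kept nuclei, and pairs of libraries shared 8 to 31 barcodes. Depth differed between the groups, with a median of 6489 and 4649 UMIs in NS and 8664 and 8691 UMIs in COL. Both COL medians also lay above both NS medians in each of the 6 classes used below. In microglia they were 2306 and 2005 UMIs in NS and 4043 and 4220 UMIs in COL. Nuclei were put in a class by 6 marker genes a class, and neurons were called glutamatergic by Slc17a6 or GABA by Gad1 and Gad2. There were 384 to 747 glutamatergic nuclei, 550 to 1511 GABA nuclei, 1238 to 3422 oligodendrocytes, 84 to 250 oligodendrocyte precursors (OPC) and 198 to 306 microglia per library. Astrocytes numbered 505 and 463 in the NS libraries but 30 and 48 in the COL libraries. The UMIs of each class were summed per library, and levels are CPM, the UMIs of a gene scaled to the same total for each sum. Transcripts of one class were also counted in nuclei of others: in microglia, Slc17a6 stood at 44.0% and 48.3% of its glutamatergic CPM in the NS libraries and at 37.3% and 27.8% in the COL libraries. Free RNA and nuclei captured together were not separated.

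Hcn2, the main HCN subunit of thalamic relay neurons, was highest in oligodendrocytes. There its CPM was 339.5 and 459.7 in the NS libraries and 230.5 and 455.0 in the COL libraries. The next class, GABA neurons, had 83.6 and 100.4 CPM in NS and 51.2 and 85.0 CPM in COL, and glutamatergic neurons had 73.9, 79.5, 47.0 and 71.3 CPM in the same order. Every oligodendrocyte sum thus lay above every neuronal sum, although COL replicate 1 was the lowest library in 5 of the 6 classes. In a fit of all 6 classes with the library as a block, Hcn2 was higher in oligodendrocytes than in GABA neurons by 2.30 (SE 0.12) on the log2 scale (edgeR quasi-likelihood test, adjusted p = 3.06e-15). None of the lower 4 steps in its order (GABA, glutamatergic, OPC, microglia, astrocyte) passed the test. Some classes further apart did differ in the same edgeR fit. GABA neurons exceeded astrocytes by 0.72, microglia by 0.71 and OPC by 0.38, at adjusted p of 2.53e-04, 1.15e-04 and 0.0372. Glutamatergic neurons exceeded astrocytes by 0.64 (adjusted p = 9.58e-04) and microglia by 0.63 (adjusted p = 4.88e-04). The summed CPM of 6 oligodendrocyte markers was 363.8 to 795.3 in GABA neurons and 13610 to 15204 in oligodendrocytes, while Hcn2 stood in GABA neurons at 18.7% to 24.6% of its oligodendrocyte level.

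Pex5l was also highest in oligodendrocytes. Oligodendrocytes had 3326 and 3652 CPM in NS and 2845 and 3253 CPM in COL, glutamatergic neurons 492.1, 745.3, 714.0 and 720.0 CPM, and GABA neurons 294.4, 318.6, 371.4 and 338.2 CPM. The values of these 3 classes did not overlap. Pex5l was higher in oligodendrocytes than in glutamatergic neurons by 2.28 (SE 0.18, adjusted p = 1.57e-11), higher in glutamatergic than in GABA neurons by 1.13 (SE 0.18, adjusted p = 2.97e-05), higher in GABA neurons than in OPC by 0.79 (SE 0.19, adjusted p = 0.00119) and higher in OPC than in microglia by 0.50 (SE 0.20, adjusted p = 0.0443) on the log2 scale (edgeR). The last step did not hold in COL replicate 2, where microglia had 250.8 CPM and OPC 218.1 CPM. Microglia and astrocytes, the lowest pair, did not differ by this test (adjusted p = 0.943). After each nucleus was thinned to 2000 UMIs, 91.5% to 96.4% of oligodendrocytes had a Pex5l UMI per library against 12.7% to 43.4% of microglia (97.7% to 98.6% and 18.1% to 68.6% without thinning). Thinning left out 1 to 378 oligodendrocytes and 2 to 136 microglia per library with fewer UMIs.

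Hcn4, the slowest-opening subunit, had 8.90 and 10.1 CPM in NS and 12.4 and 13.2 CPM in COL glutamatergic neurons, against 5.45, 4.71, 5.11 and 5.85 CPM in GABA neurons. The sets of values did not overlap between these classes, and the glutamatergic level was higher by 1.18 (SE 0.23, adjusted p = 4.75e-04, edgeR). In glia Hcn4 rested on 0 to 43 UMIs per library. Hcn3, a subunit little affected by cyclic AMP, had 10.7, 12.5, 14.4 and 12.8 CPM in GABA neurons and 9.96, 5.99, 10.5 and 10.3 CPM in glutamatergic neurons. No neighbouring pair of classes passed the test for Hcn3. Some classes further apart did differ in the fit of all 6 classes (edgeR). GABA neurons exceeded oligodendrocytes by 1.79 (adjusted p = 1.04e-07) and microglia by 2.42 (adjusted p = 1.41e-05). Glutamatergic neurons exceeded oligodendrocytes by 1.47 (adjusted p = 3.48e-06). GABA neurons also passed against astrocytes (adjusted p = 0.0150) and OPC (adjusted p = 0.0177), glutamatergic neurons against neither. Hcn3 rested on 24 to 32 UMIs per library in oligodendrocytes and 1 to 3 in microglia.

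**Figure D1:**
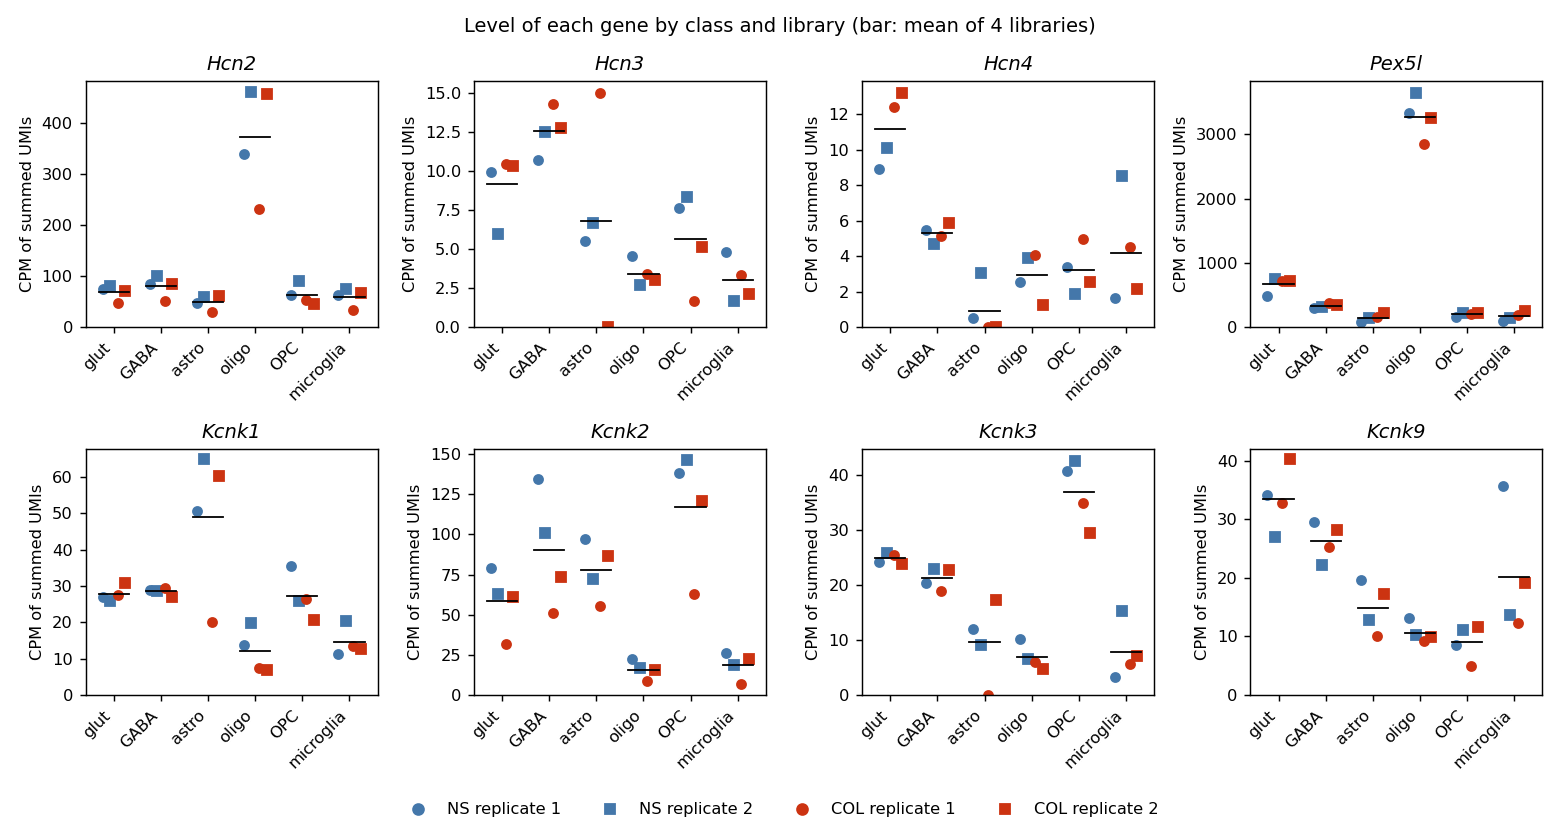
CPM of each of the 8 genes (vertical axes, from 0) in 6 classes (horizontal axes: glut, glutamatergic; astro, astrocyte; oligo, oligodendrocyte) for the 2 NS and 2 COL libraries as points, with a bar at the mean of the 4. Hcn2 and Pex5l stood highest in oligodendrocytes, Kcnk1 in astrocytes, Kcnk2 and Kcnk3 in OPC, and Hcn4 and Kcnk9 in glutamatergic neurons.

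The leak channels differed in the class where each was highest. Kcnk1 was highest in astrocytes, where TWIK-1 has been proposed to add to the passive potassium conductance. It had 50.7 and 64.9 CPM in NS and 20.1 and 60.4 CPM in COL astrocytes, the third value resting on 4 UMIs. Neurons were close together, with 26.0 to 30.8 CPM in glutamatergic and 27.0 to 29.5 CPM in GABA nuclei. The step from astrocytes to GABA neurons was 0.82 (SE 0.24, adjusted p = 0.00547) on the log2 scale (edgeR). That from OPC to microglia was 1.16 (SE 0.37, adjusted p = 0.0121), while the other 3 steps were not called. Kcnk1 rested on 16 to 42 UMIs per library in OPC and 7 to 18 in microglia. The astrocyte value of COL replicate 1 lay below all neuronal values.

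Kcnk2 was highest in OPC, with 138.0 and 146.2 CPM in NS and 63.0 and 120.6 CPM in COL. GABA neurons had 134.8, 100.7, 51.1 and 73.6 CPM, astrocytes 96.8, 72.1, 55.2 and 86.3 CPM, and glutamatergic neurons 78.8, 62.6, 31.8 and 60.9 CPM. Microglia and oligodendrocytes had 6.75 to 25.9 CPM, below every library of the other 4 classes. OPC exceeded GABA neurons by 0.35 (SE 0.12, adjusted p = 0.0194) and glutamatergic neurons exceeded microglia by 2.03 (SE 0.17, adjusted p = 3.22e-11, edgeR). The steps from GABA neurons to astrocytes and from astrocytes to glutamatergic neurons were not called. GABA neurons exceeded glutamatergic neurons, which are not neighbours in this order, by 0.48 (SE 0.11, adjusted p = 0.00187, edgeR).

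Kcnk3 was also highest in OPC, with 40.7 and 42.6 CPM in NS and 34.8 and 29.5 CPM in COL, above all neuronal values. Its neurons lay between 23.8 and 25.8 CPM (glutamatergic) and between 18.9 and 22.9 CPM (GABA). The OPC values rested on 21 to 48 UMIs. Of its 5 steps, that from GABA neurons to astrocytes was called (1.05, SE 0.28, adjusted p = 0.00309, edgeR). The astrocyte values rested on 24 and 15 UMIs in NS and 0 and 6 in COL. Kcnk9 was highest in glutamatergic neurons, with 34.2 and 26.9 CPM in NS and 32.8 and 40.2 CPM in COL, followed by GABA neurons with 29.5, 22.2, 25.3 and 28.1 CPM. The steps from glutamatergic to GABA neurons (0.48, SE 0.14, adjusted p = 0.0155) and from GABA neurons to microglia (0.73, SE 0.20, adjusted p = 0.00304) were called, though one NS microglia library, at 35.6 CPM on 22 UMIs, exceeded all GABA libraries.

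Over the 8 genes, 13 of 40 neighbouring steps were called. The shares of all 18185 genes called in the same fit were 12.6% between glutamatergic and GABA neurons, and 49.1%, 66.6%, 41.3% and 62.2% between glutamatergic neurons and astrocytes, oligodendrocytes, OPC and microglia. For GABA neurons against the same 4 classes they were 47.2%, 65.7%, 38.1% and 61.5%. Among glia they were 36.6% between astrocytes and oligodendrocytes, 27.4% between astrocytes and OPC, 39.5% between astrocytes and microglia, 38.4% between oligodendrocytes and OPC, 41.4% between oligodendrocytes and microglia and 40.5% between OPC and microglia. Fold changes use scaled library sizes (TMM), so those of small differences can depart from the ratio of CPM means.

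Within the same libraries, 5 of the 8 genes differed between GABA and glutamatergic neurons. The glutamatergic side was higher for Pex5l, Hcn4, Kcnk9 and Kcnk3, and the GABA side for Kcnk2. With the library as a block, the log2 difference of GABA from glutamatergic neurons was -1.17 (SE 0.13, adjusted p = 1.72e-04) for Hcn4 and -1.12 (SE 0.08, adjusted p = 1.02e-05) for Pex5l. It was -0.46 (SE 0.07, adjusted p = 0.00114) for Kcnk9 and -0.36 (SE 0.08, adjusted p = 0.0132) for Kcnk3. For Kcnk2 it was 0.49 (SE 0.08, adjusted p = 0.00115). Each of these directions held in 4 of 4 libraries. Of all 17500 genes tested by edgeR, 11.7% were called higher and 12.6% lower in GABA neurons. Of the members, 1 of 8 was called higher and 4 of 8 lower.

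Hcn2 (0.10, SE 0.06), Hcn3 (0.33, SE 0.15) and Kcnk1 (-0.08, SE 0.07) did not pass, at adjusted p of 0.241, 0.139 and 0.500 in the same edgeR fit. The Kcnk3 call was lost without NS replicate 1 (adjusted p = 0.0627), without COL replicate 1 (adjusted p = 0.0634) and with DESeq2 (adjusted p = 0.0719). In the fit of all 6 classes the Kcnk3 step from glutamatergic to GABA neurons did not pass either (0.37, adjusted p = 0.179). With neuron clusters split as a whole, the calls of Kcnk3 (-0.43, adjusted p = 0.0892) and Kcnk9 (-0.31, adjusted p = 0.0775) were lost, while Hcn4 was -2.001 (adjusted p = 6.48e-04) and Kcnk2 1.09 (adjusted p = 0.00428). Without the library block, only Hcn4 and Pex5l kept their calls. The blocked Kcnk2 difference of 0.49 stands beside a spread between libraries from 51.1 to 134.8 CPM in GABA neurons.

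**Figure D2:**
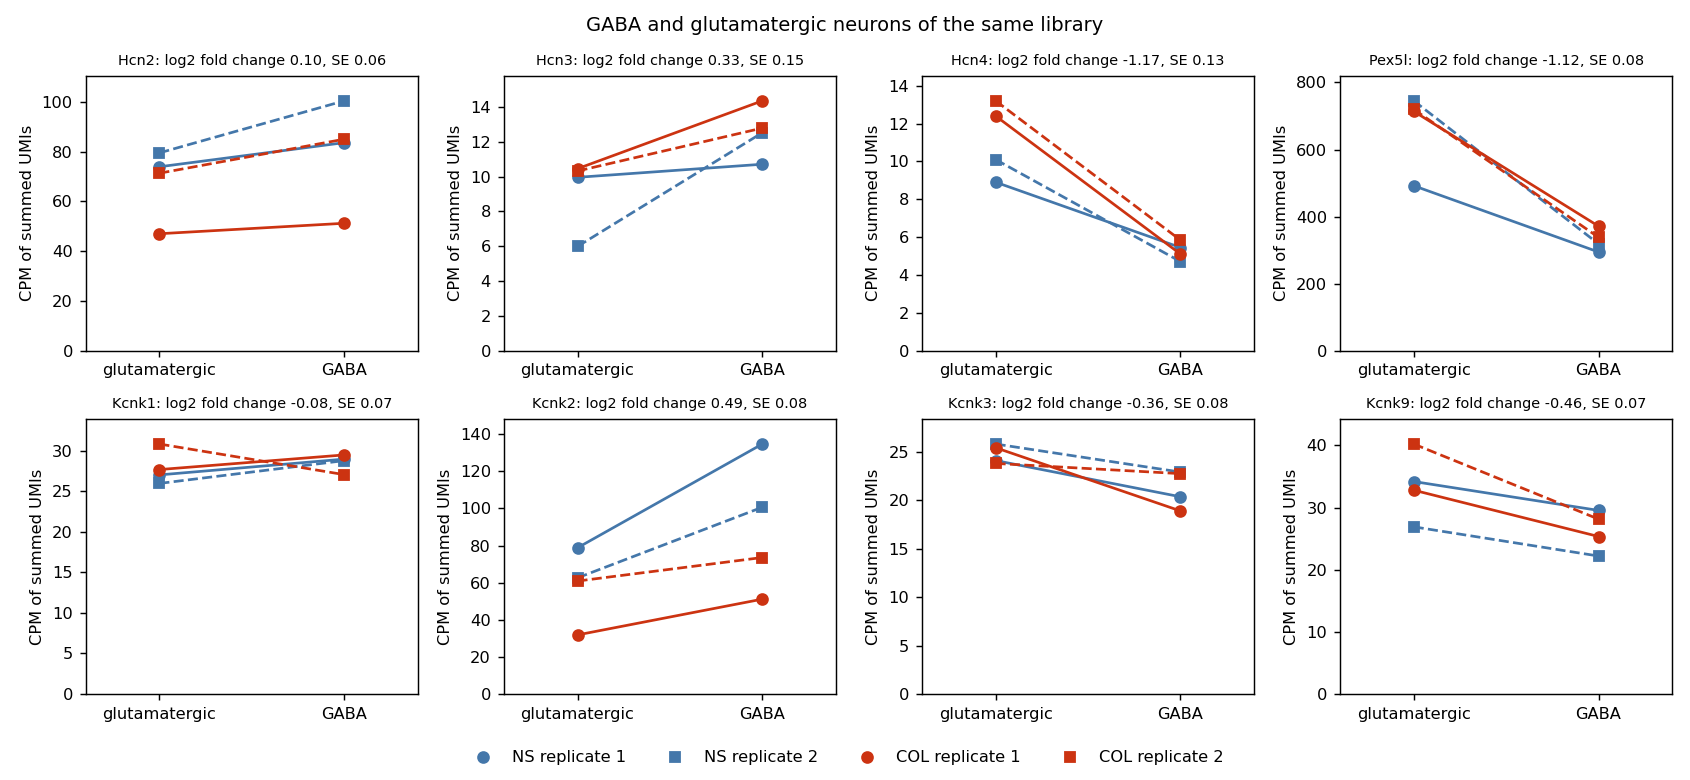
CPM (vertical axes, from 0) of each gene in glutamatergic and GABA neurons, with a line for each of the 4 libraries and the blocked log2 fold change of GABA against glutamatergic neurons with its SE in each title. Lines for Hcn4, Pex5l, Kcnk9 and Kcnk3 fell in all 4 libraries, and lines for Kcnk2 rose in all 4.

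Other genes of the same pathways were also called between the neuron types, 5 of 31 tested being higher and 11 lower in GABA neurons, beside 11.7% and 12.6% of all genes. The counts for single lists have the same background. Of the other HCN subunits and partners, 2 of 6 tested were lower in GABA neurons and none was higher. The largest log2 difference was that of Mrvi1, whose product regulates calcium release and associates with HCN4, at -3.72 (SE 0.13, adjusted p = 1.25e-07). Of the other two-pore channels, 2 of 4 tested were lower. Of 13 Gq-coupled receptors and effectors, 3 were higher and 5 lower. The alpha-1 adrenergic receptors split, with Adra1b at -1.71 (SE 0.07, adjusted p = 4.76e-07) and Adra1a at 1.59 (SE 0.18, adjusted p = 1.75e-04). The phospholipases split too, with Plcb4 at -0.98 (SE 0.08, adjusted p = 1.75e-05) and Plcb1 at 1.26 (SE 0.11, adjusted p = 3.44e-05). Of 8 adenylyl cyclases, 2 were higher and 2 lower. The median log2 difference was -0.41 for the two-pore list, -0.11 for HCN partners, 0.07 for cyclases and 0.11 for the Gq list, against 0.04 for all genes.

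No member was called between COL and NS in either neuron type. By edgeR, 0 of 17782 genes (0%) were called in glutamatergic neurons, where 3432 had an unadjusted p under 0.05, and 0 of 17983 (0%) in GABA neurons, where 4889 did. With DESeq2, 0 members were called in glutamatergic neurons, where 3.10% of 16167 genes with an adjusted p were, and 1, Kcnk2, in GABA neurons, where 6.49% of 16463 were. The largest member difference was that of Kcnk2. Both COL libraries lay below both NS libraries in each neuron type, with means of 117.7 ± 24.1 CPM in NS and 62.3 ± 15.9 CPM in COL GABA neurons (SD, n = 2 each) and 70.7 ± 11.5 CPM against 46.3 ± 20.5 CPM in glutamatergic neurons. Of all genes with at least 30 UMIs in every library, 33.9% in GABA and 26.9% in glutamatergic neurons had both COL libraries below both NS libraries, and 45.3% in each had COL replicate 1 lowest. The log2 fold change was -0.79 (SE 0.18, adjusted p = 0.0816) in GABA and -0.58 (SE 0.26, adjusted p = 0.286) in glutamatergic neurons. The GABA difference passed with DESeq2 (adjusted p = 0.0291). It ranged from -1.03 to -0.62 when 1 library was left out. The glutamatergic one passed without COL replicate 2 (-0.999, adjusted p = 0.00984) and was -0.22 (adjusted p = 0.636) without COL replicate 1.

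Hcn2 differed by -0.34 (SE 0.18, adjusted p = 0.357) in glutamatergic and by -0.32 (SE 0.22, adjusted p = 0.382) in GABA neurons. In the former both COL values lay below both NS values, and in the latter COL replicate 2 overlapped the NS libraries. Hcn4 had 0.49 (SE 0.22, adjusted p = 0.280) in glutamatergic neurons with no overlap and 0.23 (SE 0.28, adjusted p = 0.618) in GABA neurons. In glutamatergic neurons, 21.3% of all genes with at least 30 UMIs in every library had both COL values above both NS values. Hcn3 had 0.45 (SE 0.29, adjusted p = 0.438) and 0.37 (SE 0.23, adjusted p = 0.346), and Pex5l 0.27 (SE 0.24, adjusted p = 0.594) and 0.35 (SE 0.17, adjusted p = 0.232). For Kcnk1, Kcnk3 and Kcnk9 the values ran from 0.05 to 0.31. These tests are all from edgeR, and none passed the threshold. The change in GABA minus the change in glutamatergic neurons was not called for any member, with the largest member value at -0.30 (SE 0.27) for Hcn4, and 0 of 18783 genes (0%) were called in that edgeR test, 841 of them at an unadjusted p under 0.05.

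**Figure D3:**
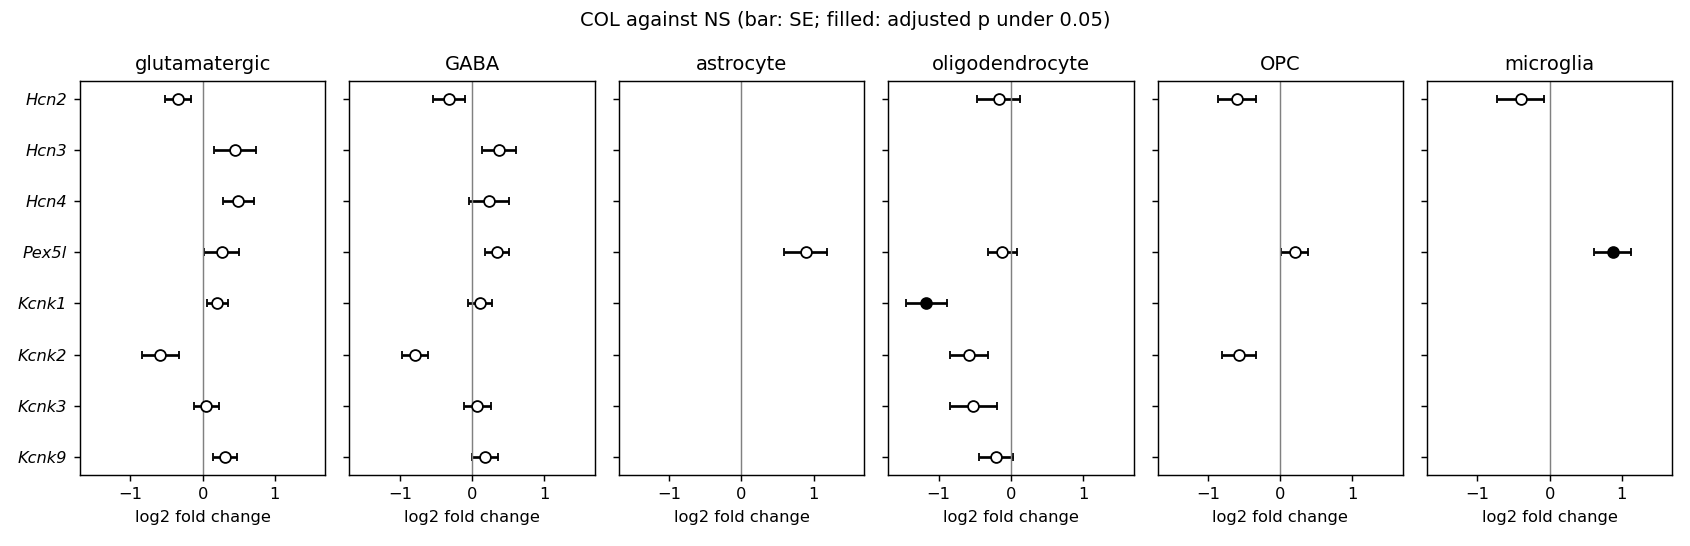
Log2 fold change of COL against NS (horizontal axes) for each gene (rows) in 6 classes (panels), with the SE as bars and filled points where the adjusted p was under 0.05. Genes with fewer than 30 UMIs in any library of a class are left out. Kcnk1 in oligodendrocytes (-1.17) and Pex5l in microglia (0.87) were called, and the Kcnk2 points lay left of 0 in all 4 classes where they are drawn.

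Glutamatergic and GABA classes each mix neurons of several kinds. Neurons of COL and NS also lay partly in different clusters of nuclei: clusters 1 and 2 held 3439 and 3340 NS nuclei against 199 and 43 COL nuclei, and cluster 4 held 178 NS and 2711 COL nuclei. A change within a neuron class therefore compares different clusters in part. COL and NS were also compared within neuron clusters, a comparison added after the class results were seen. Of 31 clusters, 3 were of one transmitter kind and held at least 50 nuclei in every library. Cluster 6 (1767 nuclei, 81.2% Slc17a6 among the UMIs of the 3 transmitter genes) was led by Abhd12b, A830036E02Rik and Prkcd, and cluster 8 (1422 nuclei, 85.4%) by Gm19303, Cd247 and Igfbp7. Cluster 17 (324 nuclei, 4.05%) was a GABA cluster led by Gm2115, Eepd1 and Ubash3b.

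Kcnk2 was lower in COL in cluster 6 and in cluster 17. In cluster 6 it had 44.3 and 47.6 CPM in NS against 18.4 and 25.8 CPM in COL, so that the COL mean was 48.1% of the NS mean. The groups did not overlap, and 27.6% of all genes with at least 30 UMIs in every library had both COL values below both NS values there. The log2 fold change was -1.07 (SE 0.17, adjusted p = 0.0123, edgeR), where 10.2% of 15985 genes were called. In cluster 17 it had 104.4 and 57.8 CPM in NS against 25.3 and 33.1 CPM in COL, a fold change of -1.42 (SE 0.29, adjusted p = 0.0214), where 5.77% of 9604 genes were called. Cluster 8 showed 48.5 and 45.2 CPM in NS against 37.3 and 45.3 CPM in COL, with overlap and a fold change of -0.17 (SE 0.14, adjusted p = 0.584), and there 0.354% of 15238 genes were called. Kcnk2 was the 1 member called in clusters 6 and 17, and 0 were called in cluster 8. Single libraries decided part of this: in cluster 6 the call was lost without COL replicate 1 (-0.87, adjusted p = 0.386) or COL replicate 2 (-1.25, adjusted p = 0.137), and in cluster 17 without NS replicate 1 (-0.95, adjusted p = 0.0805) and with DESeq2 (-1.33, adjusted p = 0.0896). COL replicate 1 had the lowest Kcnk2 of the 4 libraries in 6 of 6 classes and in all 3 clusters. Among all genes with at least 30 UMIs in every library, it was lowest for 45.3% in each neuron class. The share was 12.1% in astrocytes, 40.2% in oligodendrocytes, 16.1% in OPC and 24.6% in microglia, and was not taken for the clusters.

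Some other values in these clusters lay apart without passing. Of all genes with at least 30 UMIs in every library, 29.7% in cluster 6, 24.1% in cluster 8 and 29% in cluster 17 had both COL values above both NS values, and 27.6%, 28.3% and 26.9% had both below. Pex5l in cluster 6 had 812.7 and 887.0 CPM in NS and 1138 and 1106 CPM in COL (0.42, SE 0.14, adjusted p = 0.100, edgeR). In cluster 8 its direction was the opposite, with 549.6 and 609.7 CPM in NS and 466.8 and 454.3 CPM in COL (-0.30, SE 0.13, adjusted p = 0.255). Hcn2 in cluster 17 had 105.8 and 126.0 CPM in NS and 59.1 and 73.2 CPM in COL (-0.77, SE 0.20, adjusted p = 0.0503). Pex5l in cluster 17 had 111.4 and 133.7 CPM in NS and 162.3 and 192.5 CPM in COL (0.58, SE 0.19, adjusted p = 0.0979). Kcnk3 in cluster 6 had 28.8 and 34.8 CPM in NS and 22.5 and 18.3 CPM in COL (-0.60, SE 0.19, adjusted p = 0.0835), beside 0.05 in glutamatergic neurons as a class. Kcnk1 in cluster 6 had 26.9 and 23.1 CPM in NS and 31.2 and 36.2 CPM in COL (0.44, SE 0.15, adjusted p = 0.101). The difference between clusters was not tested.

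**Figure D4:**
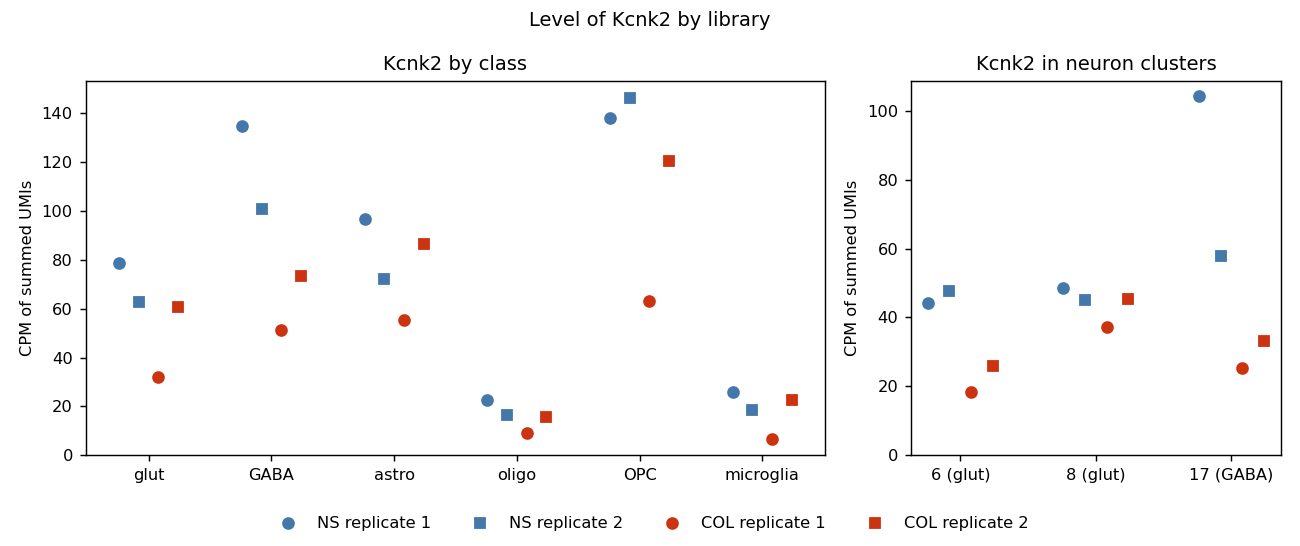
Kcnk2 in CPM (vertical axes, from 0) by library in the 6 classes (left) and in the 3 neuron clusters (right), NS in blue and COL in red. In clusters 6 and 17 both COL points lay below both NS points, and in cluster 8 they overlapped.

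Glia of COL and NS lay mostly in different clusters of nuclei, so a change within a glial class compares those clusters. Among oligodendrocytes, clusters 0 and 7 held 4057 and 1571 NS nuclei against 6 and 2 COL nuclei, and cluster 3 held 12 NS and 3174 COL nuclei. Microglia of NS lay in cluster 12 (658 NS, 9 COL) and those of COL in clusters 10 and 22 (3 and 4 NS, 713 and 193 COL). Astrocytes of NS lay in cluster 5 (2212 NS, 4 COL), while cluster 13 held 88 NS and 571 COL nuclei, of which 12.1% passed the astrocyte gate. OPC lay in cluster 15 (624 NS, 11 COL) and cluster 11 (207 NS, 502 COL).

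In oligodendrocytes Kcnk1 was lower in COL. It had 13.8 and 19.9 CPM in NS (97 and 220 UMIs) and 7.33 and 7.004 CPM in COL (52 and 55 UMIs), with no overlap. The log2 fold change was -1.17 (SE 0.28, adjusted p = 0.0264, edgeR), and 11.1% of 16445 genes were called lower and 9.41% higher. Without NS replicate 2 the call was lost (-0.81, adjusted p = 0.241). Astrocytes, the class with most Kcnk1, were fewer in COL, by an amount that depended on the gate. By the main gate they numbered 505 and 463 in NS against 30 and 48 in COL, with a lead of 1 marker 876 and 792 against 94 and 125, and by cluster 1211 and 1089 against 251 and 324. The summed CPM of 6 astrocyte markers in oligodendrocytes was 426.5 and 358.1 in NS and 176.3 and 220.6 in COL, all 6 markers being lower in both COL libraries. The part of astrocyte RNA in the Kcnk1 difference was not tested. The Kcnk1 change in oligodendrocytes also differed from that in glutamatergic neurons (-1.22, adjusted p = 0.00627) and in GABA neurons (-1.29, adjusted p = 0.00422) by the edgeR interaction test, where 7.69% and 5.23% of all genes were called.

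The genes that mark oligodendrocytes among the 8 did not pass there. Hcn2 changed by -0.17 (SE 0.30, adjusted p = 0.712) and Pex5l by -0.12 (SE 0.20, adjusted p = 0.697) in edgeR, although both COL libraries were below both NS libraries for Pex5l, as for 35.1% of all genes with at least 30 UMIs in every oligodendrocyte library. Without COL replicate 2 the Hcn2 value was -0.71 (adjusted p = 0.0279), and without COL replicate 1 it was 0.19 (adjusted p = 0.551). Kcnk2 had 22.4 and 16.6 CPM in NS and 9.02 and 15.5 CPM in COL (-0.58, SE 0.27, adjusted p = 0.155), which was -1.004 (adjusted p = 0.0208) without COL replicate 2 and -0.30 (adjusted p = 0.444) without COL replicate 1. Kcnk3 (-0.52, SE 0.33) and Kcnk9 (-0.20, SE 0.24) were not called.

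In microglia Pex5l was higher in COL, with 182.3 and 250.8 CPM against 89.0 and 149.5 CPM in NS. The groups did not overlap, but the counts were 55 and 88 UMIs in NS and 162 and 354 in COL, and 38.3% of all genes with at least 30 UMIs in every microglia library had both COL libraries above both NS libraries. The log2 fold change was 0.87 (SE 0.26, adjusted p = 0.0385, edgeR), and 9.96% of 10242 genes were called higher. The call was lost without NS replicate 1 (0.53, adjusted p = 0.231), without COL replicate 2 (0.67, adjusted p = 0.0509), with DESeq2 (0.94, adjusted p = 0.0564) and with a lead of 1 marker in the gate (0.36, adjusted p = 0.321). Meg3, a long RNA of neuronal nuclei, moved the same way in microglia, from 1717 and 1599 CPM in NS to 3991 and 3209 CPM in COL. The sum of 6 neuron markers there was 1617 and 1363 CPM in NS and 2183 and 1834 CPM in COL, with 2 of 6 higher in both COL libraries and 1 lower. The sum of 6 oligodendrocyte markers there was 1814 and 2348 CPM in NS and 986.7 and 2018 CPM in COL, with 3 of 6 higher and 2 lower in both COL libraries. The part of neuronal RNA in the Pex5l difference was not tested. By the interaction test the Pex5l change in microglia exceeded that in oligodendrocytes by 1.07 (adjusted p = 0.000611) and that in OPC by 0.81 (adjusted p = 0.018), where 5.92% and 5.72% of all genes were called. Hcn2 in microglia changed by -0.40 (SE 0.32, adjusted p = 0.416), and by -0.96 (adjusted p = 0.0325) without COL replicate 2.

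**Figure D5:**
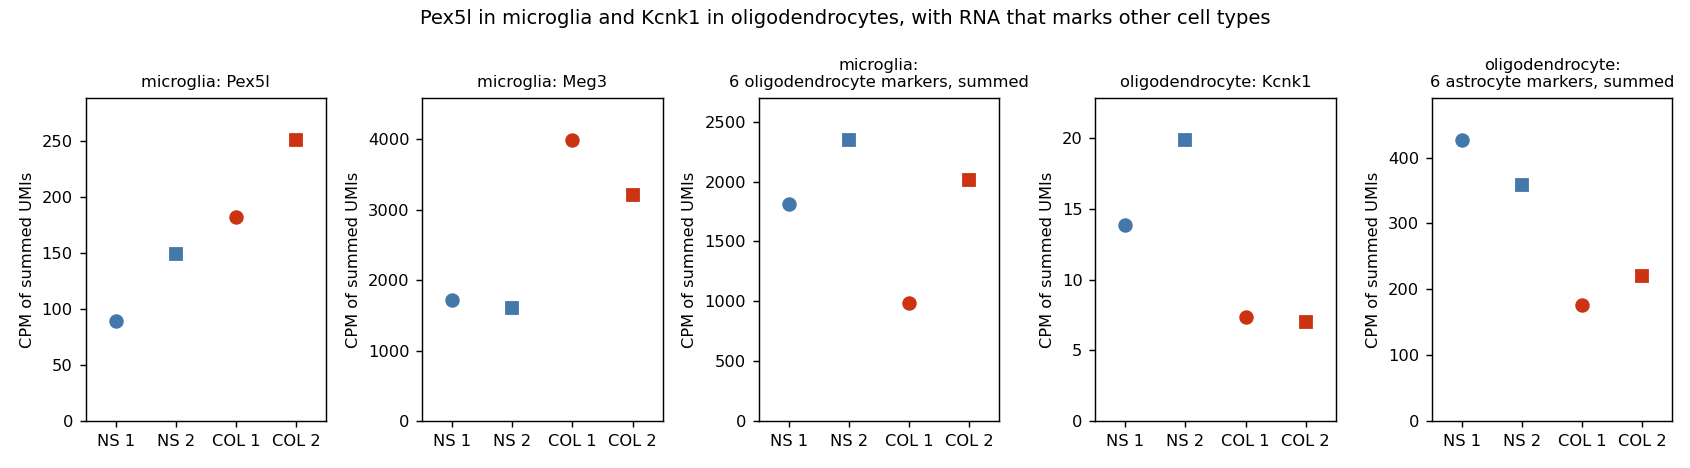
CPM by library (vertical axes, from 0) of Pex5l, Meg3 and the sum of 6 oligodendrocyte markers in microglia and of Kcnk1 and the sum of 6 astrocyte markers in oligodendrocytes, with NS in blue and COL in red. Pex5l and Meg3 were higher in both COL libraries, the summed oligodendrocyte markers overlapped between the groups, and Kcnk1 and the astrocyte markers were lower in both.

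In astrocytes Pex5l had 80.8 and 135.8 CPM in NS and 160.5 and 221.4 CPM in COL, the latter from 30 and 48 nuclei. The fold change of 0.89 (SE 0.30) missed the threshold (adjusted p = 0.112, edgeR), and 3.88% of 10665 genes were called. It passed without COL replicate 1 (1.102, adjusted p = 0.00103) and without NS replicate 2 (1.29, adjusted p = 0.0176), but was 0.46 (adjusted p = 0.715) without NS replicate 1 and 0.55 (adjusted p = 0.319) without COL replicate 2. With classes taken from clusters it was 1.56 (adjusted p = 0.00239). Meg3 in astrocytes was 1209 and 1193 CPM in NS and 2889 and 2318 CPM in COL. Slc17a6 and Gad2 were lower there in both COL libraries, Slc17a6 going from 65.7 and 83.0 to 40.1 and 46.0 CPM. Of 6 neuron markers, 3 were higher in both COL libraries and 0 lower. The part of neuronal RNA was not tested. In OPC, where 10.5% of 10211 genes were called, no member passed. There Kcnk2 changed by -0.57 (SE 0.24, adjusted p = 0.133), with both COL libraries below both NS libraries, as for 15.2% of all genes with at least 30 UMIs in every OPC library. It was -1.09 (adjusted p = 0.00128) without COL replicate 2 and -0.20 (adjusted p = 0.675) without COL replicate 1. Hcn2 changed by -0.60 (SE 0.26, adjusted p = 0.157) and Pex5l by 0.20 (SE 0.19, adjusted p = 0.568) in edgeR. The remaining members had fewer than 30 UMIs in at least one library of astrocytes, OPC or microglia, and their changes are not given.

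Genes of the pathway lists were called in glia. In glutamatergic and GABA neurons 0 of 32 and 0 of 31 tested list genes passed, where 0% of all genes did. The list medians there were 0.33 and 0.56 for two-pore channels, 0.39 and 0.39 for HCN partners, 0.36 and 0.47 for cyclases and 0.04 and 0.22 for the Gq list, against -0.02 and 0.01 for all genes. In oligodendrocytes 13 of 32 were higher (9.41% of all genes) and 0 lower, among them Mrvi1 (1.57, SE 0.41, adjusted p = 0.0332), the muscarinic receptor gene Chrm3 (1.34, SE 0.17, adjusted p = 0.00616) and Adcy7 (1.31, SE 0.31, adjusted p = 0.0252). Htr2c (1.05), Nedd4l (0.997) and Plcb4 (0.98) followed. In microglia 7 of 26 were higher (9.96% of all genes), among them Chrm3 (1.22, SE 0.23, adjusted p = 0.00536), Nedd4l (0.92), Htr2c (0.87), Adcy7 (0.76) and Grm5 (0.74). In OPC 4 of 25 were higher (4.45% of all genes), among them Nedd4l (1.12) and Htr2c (0.80), and in astrocytes 2 of 25 (2.05% of all genes), namely Chrm3 (1.503) and Grm5 (1.32). Several of these are receptor or channel genes of neurons. Meg3 was higher in the COL libraries of the same glia. In oligodendrocytes it went from 1308 and 1297 to 3329 and 2488 CPM, and in OPC from 1750 and 1624 to 2999 and 2498 CPM. Slc17a6 and Gad1 were lower in both COL libraries of oligodendrocytes and of OPC. Slc17a6 went from 77.6 and 75.85 to 44.7 and 47.4 CPM in oligodendrocytes. In OPC it went from 51.7 and 63.8 to 36.5 and 44.9 CPM. Of 6 neuron markers, 3 were higher in both COL libraries of oligodendrocytes and 0 lower. In OPC 2 were higher and 3 lower. The part of neuronal RNA was not tested. In oligodendrocytes the list medians were 0.22 for two-pore channels, 0.83 for HCN partners, 0.45 for cyclases and 0.66 for the Gq list, against 0.004 for all genes and -0.21 for the 8 members.

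The genes most like each member over the 24 sums of class and library, by Pearson's r of log2(CPM + 1), are a description, since sums of one library share its depth and its RNA of other classes. For Pex5l they were Slc24a2 (r = 0.973), Prox1os (r = 0.952) and Gm19445 (r = 0.948), the last lying inside Pex5l on the same strand. For Hcn2 they were Larp6 (r = 0.942), Chdh (r = 0.940) and Desi1 (r = 0.935), and for Kcnk2 Gria2 (r = 0.951), Tmem136 (r = 0.934) and Gm44151 (r = 0.933). Kcnk3 was nearest to Cthrc1 (r = 0.916), Ankrd29 (r = 0.910) and Zfp711 (r = 0.906), and Kcnk1 to Pfkm (r = 0.898), Timp3 (r = 0.862) and 4930570B17Rik (r = 0.858). Hcn3 was nearest to Nox4 (r = 0.886), Kcnip2 (r = 0.880) and Car11 (r = 0.874), Hcn4 to Gm15494 (r = 0.865), Epha8 (r = 0.862) and Lamb1 (r = 0.862), and Kcnk9 to 2900026A02Rik (r = 0.868), Mmaa (r = 0.868) and Ankrd13d (r = 0.857). Among the members, Hcn2 and Pex5l had r = 0.85 and Kcnk1 and Kcnk2 r = 0.73.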

How the data were processed

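The authors sequenced 10x Genomics nuclei libraries and aligned them to mm10 with Cell Ranger (version 1.2.0 per the labels). The deposited tables hold raw UMI counts per gene and nucleus, 1 table a library, with 68746459 to 77557870 UMIs. Whether intronic reads were counted is not given in the sources used here. Nuclei with over 50 genes and under 5% mitochondrial UMIs were kept. A nucleus took the class of the list of 6 markers with most genes detected, at least 3 and 2 more than any other list. A neuron was called glutamatergic or GABA with at least 2 UMIs of Slc17a6, Gad1 and Gad2, 80% or more of one kind. No doublet caller was run. Neurons of neither kind numbered 2478 and 2261 in the NS libraries and 1173 and 847 in the COL libraries. Nuclei with no class numbered 1988 of 9673 and 2226 of 10422 kept nuclei in NS. In COL they numbered 1818 of 5931 and 2736 of 6265, a larger share. Neither set of nuclei entered a test.

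UMIs were summed per class and library and tested with edgeR (4.0.16) quasi-likelihood fits, TMM and filterByExpr, two-sided, with Benjamini-Hochberg adjustment over all genes tested and a threshold of 0.05. DESeq2 (1.42.0) and other gates were alternatives, and clusters came from Seurat (5.3.0). A change was given for members with at least 30 UMIs in every library of a class, a limit set after the data were seen. The tests recovered known changes in simulated counts. Those counts had the same dispersion for every gene and no difference in clusters or carried RNA between groups. They therefore do not show how the tests behave on these libraries. All 8 members are named. Of the pathway lists, at most 6 called genes a comparison are named, those with the largest fold changes. For each member the 3 most correlated genes with a mean of at least 5 CPM are given. The members, markers and lists were chosen with earlier results of these data known. The counts of a library are of pooled mice, so n is 2 a group. Some genes that the naming rule selects are not reported here.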

Additional observations from a re-analysis of the deposited data

Results flagged for a closer look

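Changes in COL were compared between all 15 pairs of classes by the interaction term (edgeR, adjusted over all genes), and those of 2 genes were flagged. The Kcnk1 change in oligodendrocytes minus that in glutamatergic neurons was -1.22 on the log2 scale (adjusted p = 0.00627), with both COL libraries below NS in the former and above NS in the latter. Against GABA neurons it was -1.29 (adjusted p = 0.00422). In these tests 7.69% (glutamatergic) and 5.23% (GABA) of all genes were called. The Pex5l change in microglia minus that in oligodendrocytes was 1.07 (adjusted p = 0.000611), with opposite directions in every library, and against OPC it was 0.81 (adjusted p = 0.018). There 5.92% (oligodendrocytes) and 5.72% (OPC) of all genes were called. Pex5l was also lower in both COL libraries of oligodendrocytes but higher in both of GABA neurons and of astrocytes. Of all genes with at least 30 UMIs in every library, 35.1% were lower in both COL libraries in oligodendrocytes. Higher in both were 21.3% in glutamatergic neurons, 23% in GABA neurons, 50.9% in astrocytes and 38.3% in microglia. The Pex5l difference of oligodendrocytes was -0.505 against GABA neurons (adjusted p = 0.0971) and -0.99 against astrocytes (adjusted p = 0.0926), and neither passed the test.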

How the results depend on the processing

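With 2 libraries a group, single libraries decide several calls, and a library left alone in its group is assumed to vary like the others. Leaving out 1 library at a time gave 0 to 1 members called in glutamatergic neurons, astrocytes, OPC and microglia, 0 to 3 in oligodendrocytes, and 4 to 5 between GABA and glutamatergic neurons. With DESeq2, 1 member was called in GABA neurons and 0 in microglia. With no filter on low counts, or with the class of the cluster, 1 was called in astrocytes. With a lead of 1 marker, 1 was called in astrocytes, 1 in OPC and 0 in microglia. With neuron clusters split as a whole, added after the data were seen, 3 differed between GABA and glutamatergic neurons. With a replicate block, 1 member was called in GABA neurons (Kcnk2, -0.80, adjusted p = 0.0146), 1 in astrocytes (Pex5l, 0.85, adjusted p = 0.0225), 2 in oligodendrocytes (Kcnk1, and Kcnk2 with -0.59, adjusted p = 0.0499) and 1 in OPC (Kcnk2, -0.62, adjusted p = 0.0341). The deviations of libraries with the same replicate number correlated at 0.07 to 0.15 over genes, and no label says that the numbers pair them. Without the replicate block (library), 2 members were called between the neuron types.

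Some values changed sign, and not only those near 0. In the main fits Hcn2 in microglia was -0.40 and the difference of the Hcn4 changes -0.30. Without 1 library, the COL change ranged from -0.027 to 0.69 for Pex5l and -0.07 to 0.18 for Kcnk3 in glutamatergic neurons, from -0.054 to 0.21 for Kcnk3 and -0.045 to 0.20 for Kcnk1 in GABA neurons, from -0.71 to 0.19 for Hcn2 and -0.24 to 0.008 for Pex5l in oligodendrocytes, from -0.038 to 0.48 for Pex5l in OPC and from -0.96 to 0.003 for Hcn2 in microglia. Kcnk3 in glutamatergic neurons was -0.003 with a lead of 1 marker, -0.010 with the class of the cluster, -0.035 with Tcf7l2 and -0.24 with neuron clusters split as a whole, where Pex5l was -0.11. In GABA neurons a lead of 3 markers gave -0.034 for Hcn4 and -0.15 for Kcnk1. Splitting neuron clusters as a whole gave -0.45 for Kcnk1, -0.095 for Kcnk3 and -0.078 for Kcnk9. Nuclei with Dlx6os1 gave -0.14 for Kcnk3 and -0.047 for Kcnk9, from as few as 14 and 13 UMIs in a library. Pex5l in OPC was -0.37 with the class of the cluster. Between GABA and glutamatergic neurons, neuron clusters split as a whole gave -0.051 for Hcn3 and 0.24 for Kcnk1, and 0.39 for the difference of the Hcn4 changes. The cause was not tested. A lead of 3 markers was not run for astrocytes, which were too few in COL. Of the alternatives for single members, 446 kept their direction and side of the threshold and 27 changed sign. A further 16 gained a call and 17 lost one.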

Other observations

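The neuron classes held kinds in unequal shares. Of glutamatergic nuclei, 59.2% and 68.0% in the NS libraries and 91.2% and 68.5% in the COL libraries had at least 2 UMIs of Tcf7l2, a gene of thalamic glutamatergic neurons. Such a share also depends on depth, and the median was 12825 and 12014 UMIs in NS and 18631 and 15951 UMIs in COL. Tcf7l2 also had 611.6, 580.7, 626.9 and 615.4 CPM in astrocytes, beside 501.4, 547.6, 813.6 and 558.2 CPM in glutamatergic neurons. In the nuclei with at least 2 UMIs of Tcf7l2, Kcnk2 had 58.6 and 54.2 CPM in NS and 29.7 and 46.2 CPM in COL. In nuclei without a Tcf7l2 UMI it had 131.9 and 91.7 CPM in NS and 51.3 and 102.9 CPM in COL. The value of 51.3 CPM rested on 28 UMIs from 35 nuclei. In both kinds the lowest value was that of COL replicate 1. Pex5l went the other way between the kinds, with 560.1, 838.2, 727.5 and 811.9 CPM with Tcf7l2 against 326.0, 391.4, 471.2 and 545.0 CPM without.

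Of GABA nuclei, 22.4% and 5.81% in NS and 21.4% and 13.5% in COL had at least 2 UMIs of Dlx6os1, a gene of forebrain GABA neurons. These shares depend on depth as well, which was higher in both COL libraries. Kcnk2 had 145.3 and 105.3 CPM in NS and 49.2 and 82.5 CPM in COL with Dlx6os1, and 130.6, 99.7, 50.1 and 70.6 CPM in nuclei without a Dlx6os1 UMI. In both kinds each COL value lay below each NS value, as for 21.7% of all genes with at least 30 UMIs in every library with Dlx6os1 and 30% without. Hcn2 had 86.6 and 102.5 CPM in NS and 48.2 and 85.2 CPM in COL in nuclei without Dlx6os1, with COL replicate 1 again the lowest.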
